A study of Homo sapiens with 6 samples.

Results

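The HOX cluster genes are the homeobox genes of 4 chromosomal clusters, HOXA, HOXB, HOXC and HOXD, and they were taken as every row of the count table named HOX, a cluster letter from A to D and a number. This gave 39 genes among the 57341 named genes of the table: 11 HOXA, 10 HOXB, 9 HOXC and 9 HOXD genes. Of these, 29 held enough counts to be tested and 10 did not.

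RNA was sequenced from 2 groups of 3 replicates. H295R is the parental human adrenocortical carcinoma line, and H295R-PM-Ptc+ is a population sorted from it by flow cytometry for surface Ptch1, the Hedgehog receptor, and grown on afterwards. It was described as 1 sorted population, so a difference from the parental line cannot be told apart from a feature of that sort or of the culture after it. Both groups were grown untreated in the same medium, with low serum replacement and insulin, transferrin and selenium. Nothing in the labels says whether the replicates of a group came from separate cultures, and p-values then measure only the spread between these samples.

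The comparison asks how the sorted cells differ from the parental line. The check of the labels went against them: PTCH1, the gene of the protein used for the sort, held 441, 559 and 579 counts in the H295R-labelled libraries and 248, 326 and 319 in those labelled H295R-PM-Ptc+. Its log2 fold change was -0.81 (SE 0.147, edgeR adjusted p = 0.0207), lower in the group labelled as sorted for its protein. The study's supplementary table of normalized values carries the group names the other way round from the deposited count columns. Directions are therefore given below only between the H295R-labelled and the H295R-PM-Ptc+-labelled libraries, and which of them was sorted cannot be told apart from an exchange of the labels.

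The 6 libraries held 23264403 to 25813247 counted fragments. All 9 adrenal cortex markers were tested in them, from INHA, an inhibin subunit, with 70 to 114 counts, to NR5A1, the steroidogenic master regulator, with 8273 to 9729 counts. Of these, CYP21A2, the 21-hydroxylase, passed the test (log2 fold change 0.88, edgeR adjusted p = 0.0067). With the replicate number as a block 3 of the 9 passed, beside 22.5% of all tested genes (3.73% without the block), with STAR, the cholesterol carrier of steroid synthesis, also higher (log2 fold change 0.41, edgeR adjusted p = 3.91e-06) and CYP11A1, the side-chain cleavage enzyme, lower (-0.24, edgeR adjusted p = 0.00100). Defining markers of other cell types were absent or nearly so: PTPRC and HBB of blood, LUM of fibroblasts and DBH and PNMT of chromaffin cells were at 0 in every library, DCN held 0 to 5 counts, and the 5 endothelial markers did not pass 11. Low counts were found for CD14 (15 to 32) and CHGA (18 to 39), and COL1A1 held 188 to 244. COL3A1, a collagen gene of fibroblasts, was present at 573 to 1760 counts and rose in the H295R-PM-Ptc+-labelled libraries (log2 fold change 1.51, edgeR adjusted p = 0.00013).

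HOX genes code for transcription factors that give cells their position along the head-to-tail axis and, in limbs and the urogenital tract, along the outgrowing part. Within a cluster the genes are numbered in order from one end to the other, genes with the same number in different clusters are paralogs, and low numbers act towards the head and high numbers towards the tail. Adult tissues and the cells derived from them usually keep the combination of HOX genes that their site of origin used. HOX proteins bind DNA together with TALE homeodomain partners (PBX, MEIS and PKNOX). In the fetal adrenal of the mouse, a complex of HOX and TALE proteins acts on an enhancer of the gene for NR5A1, so HOX genes belong to the history of this tissue.

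The clusters were placed on GRCh38. HOXA lay at chr7:27092993-27200106, HOXB at chr17:48528526-48729178, HOXC at chr12:53938765-54056030 and HOXD at chr2:176092891-176190907, measured between the outermost exon ends of their HOX genes. The clusters also hold microRNA genes whose products act on HOX mRNAs, and 2 seed families are shown here because they share sequence with members named below. The sequences are those of RefSeq on GRCh38.p14, read 5′ to 3′, and capitals mark the seed, bases 2 to 8, which pairs with target mRNAs.
hsa-miR-196a-5p: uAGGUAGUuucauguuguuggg
hsa-miR-196b-5p: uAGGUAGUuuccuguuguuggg
hsa-miR-10a-5p: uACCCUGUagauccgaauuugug

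The first of these is made from MIR196A1 in the HOXB cluster (chr17:48632532-48632553, minus strand) and from MIR196A2 in the HOXC cluster (chr12:53991762-53991783, plus strand). The second comes from MIR196B in the HOXA cluster (chr7:27169528-27169549, minus strand) and has the same seed, and the third from MIR10A in the HOXB cluster (chr17:48579904-48579926, minus strand). HOXB8 is the textbook target of miR-196, with a site in its 3′ untranslated region that is cleaved rather than only repressed. The site was found in the exons of HOXB8 at chr17:48612770-48612791, minus strand, and is written as DNA of the mRNA strand, with the 7 bases facing the seed in capitals.
HOXB8 site: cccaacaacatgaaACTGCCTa

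Of its 22 bases, 21 pair with miR-196a-5p by Watson-Crick pairing and 1 forms a G:U pair. The best such site in any other HOX gene had 15 Watson-Crick pairs, in HOXA7 and HOXA9. The exact seed match, ACTACCT searched on the mRNA strand of all exons, occurred in 10 of the 39 members, with 4 copies in HOXA7, 2 each in HOXA9 and HOXC8, and single copies in genes such as HOXA5, HOXA6, HOXB6, HOXB7 and HOXB13. It occurred in 20% of 16260 tested genes scanned in the same way, and in 17.2% of the 11161 of them with exons as long as those of the members. The match to the miR-10a-5p seed, ACAGGGT, occurred in 5 members, such as HOXB2, HOXB3 and HOXB5, and in 24.3% of the genes of like length. These matches describe sequence only. The mature microRNAs are too short for these libraries and were not measured, and their part in any result below was not tested.

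HOX genes together held 8453 to 10466 counts per library, which is 365 to 430 CPM, the normalized counts scaled with TMM factors. HOXA genes gave 69.9% of all HOX counts, HOXB 20.0%, HOXC 7.46% and HOXD 2.71%. By paralog number, the 16 genes of groups 9 to 13 gave 64.3% to 64.9% of the HOX counts of a library, the 15 genes of groups 4 to 8 gave 30.6% to 31.7%, and the 8 genes of groups 1 to 3 gave 3.98% to 4.77%. The share of groups 9 to 13 was 64.6% ± 0.276 (SD, n = 3) in the H295R-labelled libraries and 64.7% ± 0.170 (SD, n = 3) in those labelled H295R-PM-Ptc+, a difference smaller than the spread. Both groups thus carried a HOX profile weighted to the tail end of the numbering and to the HOXA cluster, and for the other classes of paralogs too the shares differed between groups by less than the larger SD.

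Levels of different genes were compared as CPM per kilobase of exon, averaged over the 6 libraries, with the exon length given in the count table. At 10 or more were 6 genes, from 1 to under 10 were 15, above 0 but under 1 were 15, and 3 had no count in any library. The count of genes at 1 or more, 21, was the same when exon stretches shared with another gene on the same strand were left out of the length.

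**Figure D1:**
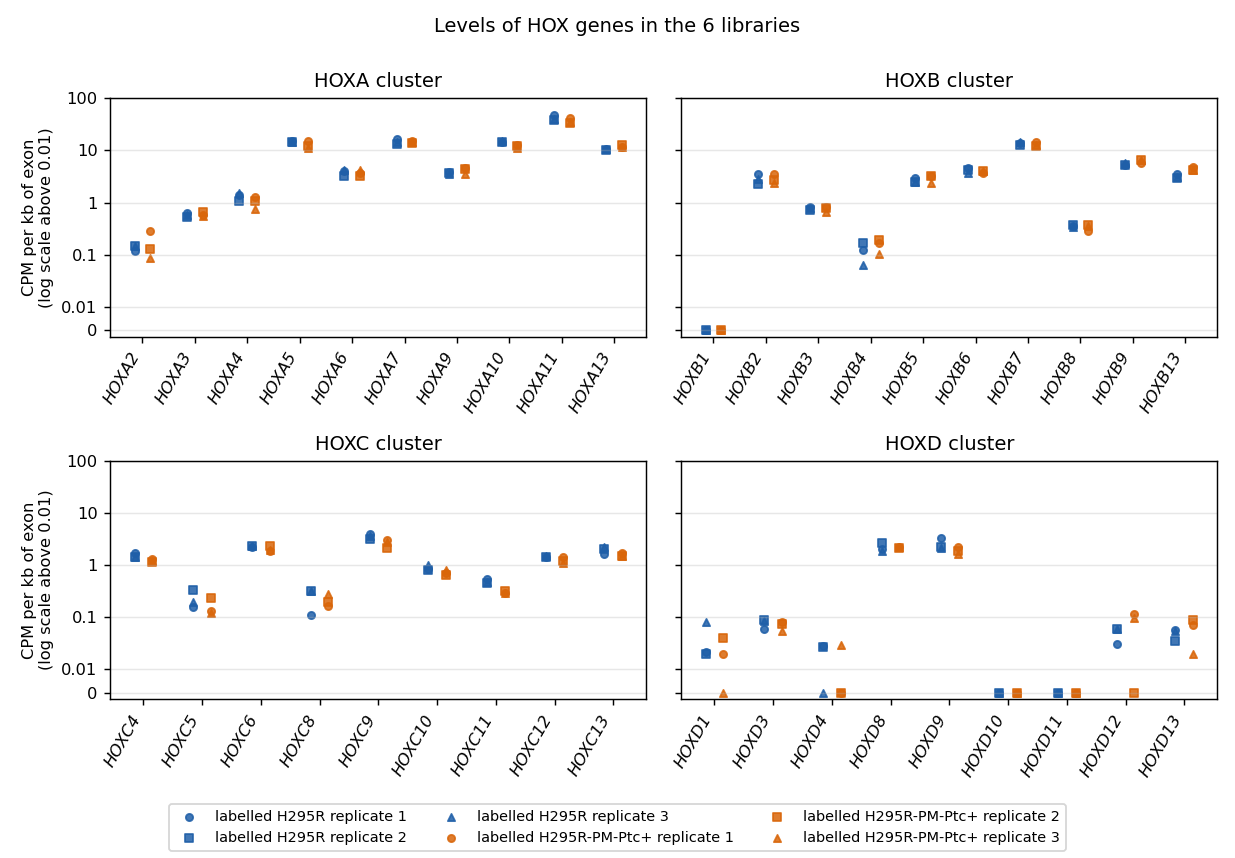
Each point is one library and gives the level of a HOX gene, for the genes named here, in CPM per kilobase of exon, on a log axis that is linear below 0.01, with blue for the H295R-labelled libraries, orange for those labelled H295R-PM-Ptc+, and a marker shape for each replicate number. HOXA11 stood highest at a mean of 39.4, most HOXD genes stood below 0.1, and HOXB1, HOXD10 and HOXD11 lay at 0 in all 6 libraries.

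In the HOXA cluster every gene held counts. HOXA11, which patterns the forearm, kidney and uterus, was the most abundant HOX gene at 39.4 CPM per kilobase and 1852 to 2673 counts. HOXA7 followed at 14.7 (813 to 958 counts), then HOXA5, a gene of lung development, at 13.8 (433 to 668 counts), HOXA10, needed in the uterus, at 13.3 (973 to 1403 counts), and HOXA13, the digit and hindgut gene at the end of the cluster, at 11.2 (1192 to 1437 counts). HOXA9, an oncogene in leukaemia, stood at 3.91 CPM per kilobase, HOXA6 at 3.75 and HOXA4 at 1.18. The genes at the head end were low, with HOXA3, which acts in the thymus and parathyroid, at 0.589 and HOXA2, which patterns the pharyngeal arches, at 0.153 with 5 to 18 counts. Between HOXA7 and HOXA9 the level thus dropped and then rose again towards HOXA11, so the order of levels did not follow the order of the genes.

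In the HOXB cluster HOXB7 was highest at 13.5 CPM per kilobase (453 to 577 counts), next to HOXB9 at 5.83, HOXB6 at 4.06 and HOXB13, the prostate and tail-end gene, at 3.75. Between HOXB7 and HOXB9 lies HOXB8, the gene with the miR-196 site printed above, and it stood at 0.344 with 15 to 19 counts. HOXB2 (2.87) and HOXB5 (2.76) were near each other, HOXB3 stood at 0.764 and HOXB4, used to expand blood stem cells, at 0.136 with 6 to 18 counts. HOXB1, the hindbrain gene of the facial nerve, had no count in any of the 6 libraries. A count of 0 allows up to 3 counts in a library at this depth, and for counting error only.

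In the HOXC cluster no gene reached 10 CPM per kilobase. HOXC9, a gene of the lower thoracic level, was highest at 3.10, followed by HOXC6 at 2.16, HOXC13, the hair and nail gene, at 1.76, HOXC4 at 1.37 and HOXC12 at 1.34. HOXC10 stood at 0.806 and HOXC11 at 0.399. HOXC8 (5 to 15 counts) and HOXC5 (6 to 18 counts) were close to the limit of detection. HOXC5 shares 43.4% of its exon length with other genes on its strand, so fragments from that stretch could have gone uncounted.

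In the HOXD cluster 2 genes carried most counts, HOXD9 at 2.23 and HOXD8 at 2.21 CPM per kilobase. The other 7 held 11 counts or fewer in every library. HOXD3 had 7, 11 and 10 counts in the H295R-labelled libraries and 10, 9 and 6 in those labelled H295R-PM-Ptc+, and HOXD13, mutated in synpolydactyly, had 3, 2 and 3 against 4, 5 and 1. HOXD12 ranged from 0 to 4 counts, HOXD1 from 0 to 4 and HOXD4 from 0 to 1, and HOXD10 and HOXD11 had none. The tail-end weight of HOXA was therefore not matched in HOXD, where HOXD9 was the last gene above 5 counts. HOXD4 shares 80.5% of its exon length with HOXD3, and the 10 members that were not tested are HOXD1, HOXD3, HOXD4, HOXD10, HOXD11, HOXD12 and HOXD13 with HOXA2, HOXB1 and HOXC5.

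A promoter is shown for 3 cases, a gene with the highest level, a gene with no counts, and a pair that shares a start. Promoters were found in RefSeq's table (GRCh38.p14) for 20 of the 39 members, 27 in all, and the 250 bases before the start are printed 5′ to 3′ on the gene's strand, with each CpG in capitals.
HOXA11 promoter, chr7:27185233-27185482, minus strand: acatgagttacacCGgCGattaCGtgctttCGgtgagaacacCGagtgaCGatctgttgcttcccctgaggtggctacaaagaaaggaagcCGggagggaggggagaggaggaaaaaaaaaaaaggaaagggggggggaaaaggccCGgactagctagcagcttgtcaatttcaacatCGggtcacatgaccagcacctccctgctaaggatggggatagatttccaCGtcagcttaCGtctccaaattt
HOXD10 promoter, chr2:176116528-176116777, plus strand: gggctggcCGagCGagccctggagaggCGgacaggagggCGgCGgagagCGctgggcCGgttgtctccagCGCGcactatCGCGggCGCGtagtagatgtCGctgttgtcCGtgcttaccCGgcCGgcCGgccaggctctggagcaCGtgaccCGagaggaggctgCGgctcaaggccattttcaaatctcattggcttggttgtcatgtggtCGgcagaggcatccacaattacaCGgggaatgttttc
HOXC4 and HOXC5 promoter, chr12:54016638-54016887, plus strand: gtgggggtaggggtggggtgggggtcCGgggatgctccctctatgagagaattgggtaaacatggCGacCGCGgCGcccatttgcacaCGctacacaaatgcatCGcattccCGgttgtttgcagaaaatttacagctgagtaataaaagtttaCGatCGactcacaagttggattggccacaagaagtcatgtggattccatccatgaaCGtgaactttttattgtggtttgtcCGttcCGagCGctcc

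The HOXA11 stretch held 11 CpG and that of HOXD10 held 23. HOXB1, also with no counts, held 7, and HOXA13, among the genes with the highest levels, held 40. A relation between CpG and level over the members was not tested. HOXC4 and HOXC5 start from the same promoter in this table, with 14 CpG, while HOXC4 held 75 to 109 counts per library and HOXC5 6 to 18. Over all member promoters the median was 19 CpG in 250 bases, against 11 over 35116 promoters of all genes, at nearly the same median GC content (58.8% and 58%). In the member median HOXA3 counts with several promoters, and the stretch of HOXC4 and HOXC5 counts for each gene. HOXB1 is the only HOXB gene in it. Dense CpG is usual for developmental regulator genes, and methylation and chromatin were not measured.

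Between the groups, no HOX gene passed the test with group as the only term, and the HOX profile as a whole moved little. With the pairing by replicate number entered, 7 of the 29 passed, as given in the next paragraph. With edgeR's quasi-likelihood test and p-values adjusted by Benjamini-Hochberg over 16710 genes, 0 of the 29 tested HOX genes had an adjusted p under 0.05, where 3.73% of all tested genes did. At an unadjusted p under 0.05 there were 6, 3 higher and 3 lower in the H295R-PM-Ptc+-labelled libraries, beside 17.3% of all tested genes. DESeq2 called 2 of the 29, HOXA10 and HOXB13 (5.45% of all genes), and limma-voom called 0 (3.64% of all genes). In bulk RNA a lower count can mean less RNA per cell or fewer cells that carry the gene, and these cannot be told apart.

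Replicates with the same number deviated together across all genes, so the replicate number was also entered as a block. With the block, 7 of the 29 HOX genes had an edgeR adjusted p under 0.05, which is 24.1%, beside 22.5% of all tested genes. HOXA13 and HOXB13 rose in this fit, where 12.1% of all tested genes rose, and HOXA10, HOXA11, HOXC9, HOXC11 and HOXD9 fell, where 10.4% did. A share this near the background is no sign that HOX genes changed more often than other genes. In single libraries, 9 of 29 members had CPM values that did not overlap between the groups, beside 23.5% of all tested genes. Higher without overlap were 4 of 29, HOXA13, HOXB9 and HOXB13 among them, beside 12.4% of all tested genes. Lower were 5 of 29, HOXA10, HOXC4, HOXC9, HOXC10 and HOXC11, beside 11.2%. Whether these shares differ from those of all genes was not tested. For a single gene, an exact two-sided permutation test of 3 against 3 cannot go below p = 0.1, the value that any gene without overlap gets.

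The differences were small. The log2 fold changes of the 29 genes lay between -0.73 (HOXC11) and 0.46 (HOXB13), with a median of -0.064 beside 0.000939 over all tested genes. The fitted value was above 0 for 9 members and below 0 for 20, where 49.8% of all tested genes lay below 0. By cluster, 4 of 10 HOXA genes, 4 of 9 HOXB genes, 0 of 8 HOXC genes and 1 of 2 HOXD genes lay above 0, and differences between clusters were not tested.

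**Figure D2:**
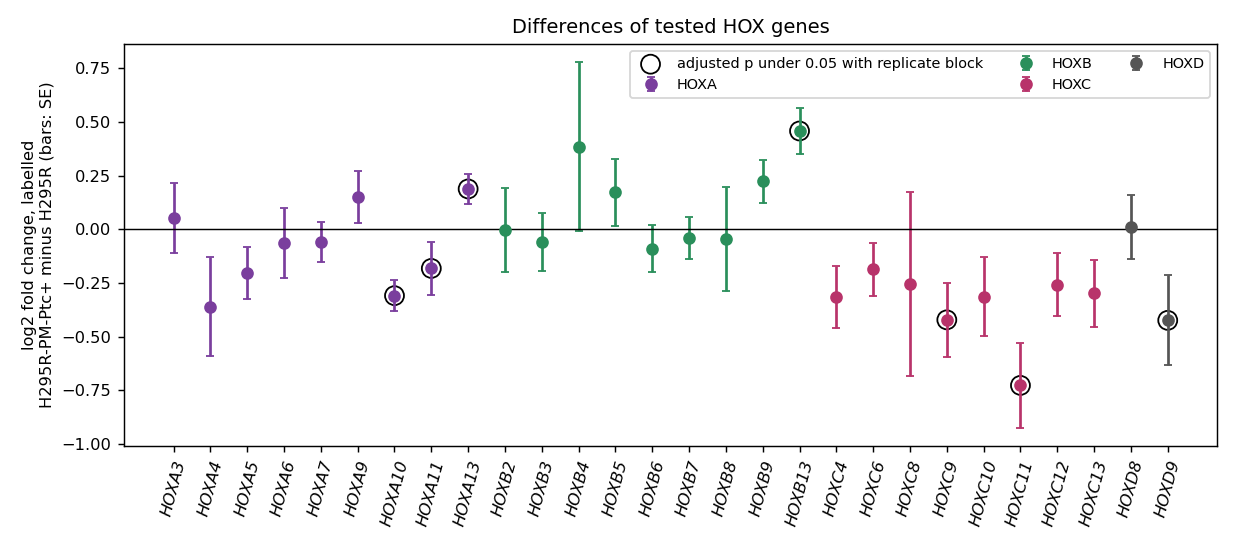
Points give the log2 fold change of the tested HOX genes named here between the H295R-PM-Ptc+-labelled libraries and those labelled H295R, bars give its standard error (n = 3 a group), colours mark the clusters and circles mark the 7 genes with an adjusted p under 0.05 with the replicate block. All 8 HOXC points lie below 0, from -0.73 to -0.19, and those of HOXA and HOXB lie on both sides of it.

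HOXA10, which with HOXB13 was called by DESeq2, had the smallest p of the HOX genes in the fit without the block, and HOXB13 had it with the block and in DESeq2. HOXA10 held 1289, 1340 and 1403 counts in the H295R-labelled libraries and 1174, 1093 and 973 in those labelled H295R-PM-Ptc+. All 3 libraries of the second group lay below all 3 of the first, at 44.0 ± 1.95 against 54.5 ± 2.05 CPM (SD, n = 3 each). The log2 fold change was -0.31 (SE 0.0730, edgeR adjusted p = 0.0552), which passed in the blocked fit (adjusted p = 0.000918) and in DESeq2 (adjusted p = 0.0297). Its exons overlap those of other genes, so part of its fragments could have gone uncounted.

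HOXB13 went the other way. It held 287, 264 and 259 counts in the H295R-labelled libraries and 422, 356 and 331 in those labelled H295R-PM-Ptc+, or 11.0 ± 0.911 and 15.0 ± 1.27 CPM (SD, n = 3 each). The groups did not overlap and replicate 1 was the highest of both. The log2 fold change was 0.46 (SE 0.109, edgeR adjusted p = 0.0570). It passed in the blocked fit (adjusted p = 0.000762), in DESeq2 (adjusted p = 0.0238), with no filter on low counts (edgeR adjusted p = 0.0283, 3.59% of all genes called) and without replicate 1 of H295R (edgeR adjusted p = 0.0271, 4.75% called), and the adjusted p reached 0.213 when another library was left out.

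HOXA13 and HOXB9 were also higher in the H295R-PM-Ptc+-labelled libraries. HOXA13 held 1201, 1192 and 1235 counts against 1400, 1437 and 1274, with no overlap. This is 49.1 ± 1.84 and 55.9 ± 1.68 CPM (SD, n = 3 each), with a log2 fold change of 0.19 (SE 0.0705, edgeR adjusted p = 0.210, and 0.0213 with the block). HOXB9, a gene of the thoracic level, held 329, 340 and 359 counts against 375, 421 and 395. Its groups did not overlap either, and its log2 fold change of 0.22 did not pass in any fit (SE 0.0985, edgeR adjusted p = 0.289, and 0.0579 with the block).

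HOXA11, the most abundant member, held 2673, 2226 and 2243 counts in the H295R-labelled libraries and 2507, 1931 and 1852 in those labelled H295R-PM-Ptc+. Replicate 1 was the highest of both groups, the groups overlapped, and each library labelled H295R-PM-Ptc+ lay below the one with its number. At 96.7 ± 13.2 and 85.3 ± 11.2 CPM (SD, n = 3 each) the log2 fold change was -0.18 (SE 0.122, edgeR adjusted p = 0.510), and it passed in the blocked fit (adjusted p = 0.00874). The value went to -0.066 without replicate 1 of H295R, and to -0.30 and -0.12 without replicates 1 and 2 of H295R-PM-Ptc+. HOXB7, the highest of its cluster, held 505, 502 and 537 counts against 577, 465 and 453, and its log2 fold change of -0.041 was smaller than its error (SE 0.0974, edgeR adjusted p = 0.891).

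**Figure D3:**
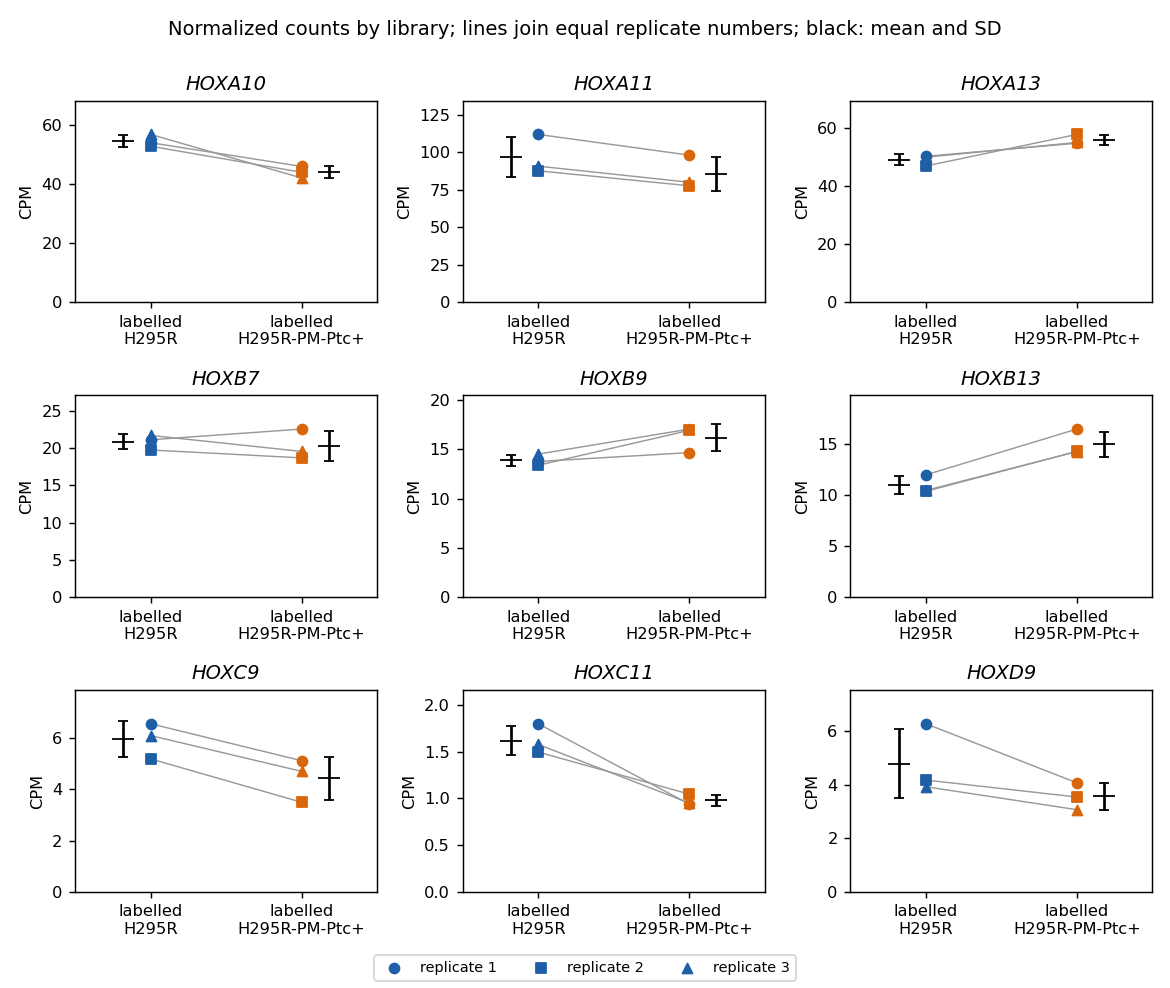
Each panel gives the CPM of 1 HOX gene on an axis from 0, with a point for each library, grey lines between libraries of the same replicate number, and the mean and SD of each group in black (n = 3). HOXA10 goes down and HOXB13 goes up along all 3 lines, while HOXA11 shows 3 nearly parallel lines and a high replicate 1 in both groups.

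The fitted values of the tested HOXC genes all lay lower in the H295R-PM-Ptc+-labelled libraries. Of the 8 that were tested, 8 had a log2 fold change below 0, from -0.73 to -0.19 with a median of -0.31. The groups did not overlap for 4 of the 8 (HOXC4, HOXC9, HOXC10 and HOXC11), beside 11.2% of all tested genes that lay lower without overlap. Within replicate 1, HOXC8, HOXC12 and HOXC13 had a higher CPM in the H295R-PM-Ptc+-labelled library. No tested HOXC gene passed the main test, with 2 of 8 at an unadjusted p under 0.05 (17.3% of all tested genes), and 2 of 8 passed with the block, beside 22.5% of all tested genes. Summed over the cluster, HOXC genes held 760, 807 and 834 counts in the H295R-labelled libraries and 696, 639 and 593 in those labelled H295R-PM-Ptc+. The sums did not overlap, at 32.4 ± 1.12 and 26.2 ± 0.907 CPM (SD, n = 3 each), a log2 ratio of -0.31 with an SD of 0.0865 over the 3 pairs of equal number. No single gene set this sum, since HOXC6, the member with the most counts, gave 26.1% of it.

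HOXC11 had the largest log2 fold change in size among the 29 tested HOX genes. It held 43, 38 and 39 counts in the H295R-labelled libraries and 24, 26 and 22 in those labelled H295R-PM-Ptc+. These few fragments gave 1.62 ± 0.157 and 0.978 ± 0.0587 CPM (SD, n = 3 each) and a log2 fold change of -0.73 (SE 0.197, edgeR adjusted p = 0.0857, and 0.0292 with the block). HOXC9 held 157, 132 and 151 counts against 131, 87 and 109. It stood at 5.96 ± 0.699 and 4.44 ± 0.844 CPM (SD, n = 3 each), with a log2 fold change of -0.42 (SE 0.172, edgeR adjusted p = 0.251, and 0.0198 with the block), which went to -0.28 without replicate 2 of H295R-PM-Ptc+.

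The sums of the other clusters overlapped between the groups, while within pairs of equal number each had 1 direction in all 3 pairs. With the H295R-labelled libraries first, HOXA genes summed to 284 ± 20.1 and 265 ± 18.1 CPM (SD, n = 3 each), a log2 ratio of -0.10 with an SD of 0.0535 over the pairs, lower in each pair, and of -0.058 without HOXA11. HOXB genes summed to 75.6 ± 4.17 and 81.3 ± 3.98 CPM, a log2 ratio of 0.10 (SD 0.0587), higher in each pair. HOXD genes summed to 293, 300 and 239 counts against 275, 245 and 219, a log2 ratio of -0.17 (SD 0.118), lower in each pair. Single libraries moved these ratios by more than 1.5 times: that of HOXA went to -0.043 without replicate 1 of H295R, and to -0.16 and -0.065 without replicates 1 and 3 of H295R-PM-Ptc+. That of HOXB went to 0.069 without replicate 2 of H295R and 0.066 without replicate 1 of H295R-PM-Ptc+, and that of HOXD to -0.099 and -0.26 without replicates 1 and 3 of H295R. In the HOXD cluster the pair of expressed genes stood apart. HOXD9 held 150, 106 and 97 counts against 104, 88 and 71 (log2 fold change -0.42, SE 0.209, edgeR adjusted p = 0.349, and 0.0403 with the block), with replicate 1 of H295R well above the others, and without it the value was -0.18. HOXD8 held 130, 177 and 123 counts against 152, 141 and 137, a log2 fold change of 0.011.

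Beside the HOX genes, 57 other named genes had all their exons inside the clusters, mostly antisense and long noncoding RNAs and microRNA hairpins. Of these, 29 had no count in any library and 13 were tested. No gene of the 13 passed edgeR's test (0, with 3 at an unadjusted p under 0.05, and 0 in DESeq2 and limma-voom), and 2 passed with the block. That is 3 of 13 beside 17.3% of all tested genes, and 15.4% beside 22.5% with the block. HOXA10-AS, transcribed from the strand opposite HOXA10, held 112, 143 and 123 counts in the H295R-labelled libraries and 198, 155 and 168 in those labelled H295R-PM-Ptc+. The groups did not overlap, and its log2 fold change was 0.47 (SE 0.138, edgeR adjusted p = 0.106, and 0.0147 with the block), where that of HOXA10 had the opposite sign. Counts of HOXA10-AS were 8.69% to 10.7% of those of HOXA10 in the first group and 14.2% to 17.3% in the second, which follows from the directions of both genes. Counting used the strand of the fragments, and fragments from exons that share a strand were not counted for either name.

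The second was the row of MIR196A1, with 8, 17 and 12 counts against 15, 32 and 22 (log2 fold change 0.91, edgeR adjusted p = 0.254, and 0.0335 with the block). Its groups overlapped and each library labelled H295R-PM-Ptc+ lay above the one with its number. These fragments come from longer RNA over the hairpin and give no level of miR-196a-5p, whose sequence is printed above. HOXB8, the gene with its near-perfect site, held 17, 19 and 17 counts against 15, 19 and 17 and had a log2 fold change of -0.045 (SE 0.243, edgeR adjusted p = 0.959). HOXA11-AS, antisense to HOXA11, held 649, 443 and 513 counts against 626, 423 and 423, again with replicate 1 highest in both groups. Its counts were 19.9% to 24.3% of those of HOXA11 in the first group and 21.9% to 25% in the second, and these overlapped. HOTAIR, the HOXC antisense RNA known for its link to Polycomb, held 16, 16 and 7 counts against 31, 17 and 10 and did not pass (log2 fold change 0.57, edgeR adjusted p = 0.579).

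The 5 nearest tested genes on each side of a cluster, 40 in all, were taken as flanking genes. No flanking gene passed edgeR's test (0, with 3 of 40 at an unadjusted p under 0.05 beside 17.3% of all tested genes, and 0 in DESeq2 and limma-voom), and 5 passed with the block, beside the 22.5% given above. Beside HOXC the median log2 fold change of the flanking genes was -0.021, beside HOXA 0.051, beside HOXB 0.003 and beside HOXD -0.041. Of the 10 neighbours of HOXC, 4 lay above 0 and 6 below, from -0.22 to 0.33, so the lowest of them reached into the range of the HOXC genes given above, and the difference between these genes and their neighbours was not tested. CHN1, a signalling gene beside HOXD, rose with the block (log2 fold change 0.37, edgeR adjusted p = 0.155, and 2.79e-05 with the block), as did SNX10 beside HOXA (0.28, edgeR adjusted p = 0.172 and 0.00369), while ATP5G3, KIAA1715 and CBX1 fell with the block (-0.19, -0.16 and -0.12).

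**Figure D4:**
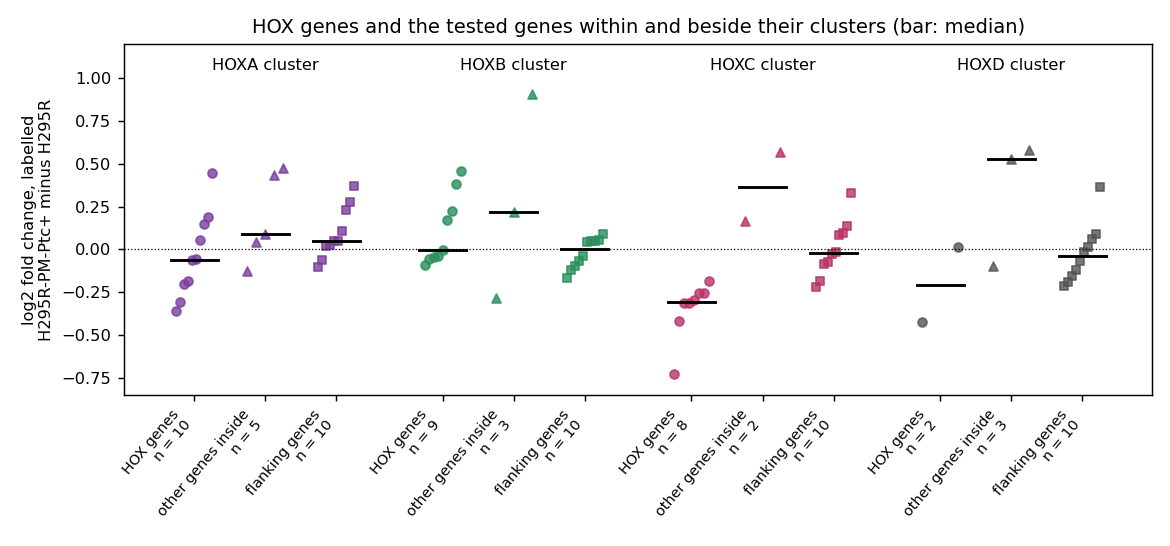
Points give log2 fold changes between the H295R-PM-Ptc+-labelled libraries and those labelled H295R for the tested HOX genes (circles), the other tested genes inside each cluster (triangles) and the 10 flanking genes (squares), with bars for the medians. The HOXC genes centre on -0.31 and their flanking genes on -0.021, and 10 of the 13 other genes inside the clusters lie above 0.

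Of the 9 TALE partners of HOX proteins, 8 were tested. MEIS2 held 4423 to 5250 counts, PBX4 held 26 to 46, and PKNOX2 had 1 count in all. No partner passed edgeR's test (0, with 3 at an unadjusted p under 0.05, 1 in DESeq2 and 0 in limma-voom), and 4 passed with the block. That is 3 of 8 beside 17.3% of all tested genes, and 4 of 8 beside 22.5% with the block. The partners that passed with the block did not move together, since 1 was higher and 3 were lower in the H295R-PM-Ptc+-labelled libraries. MEIS1 held 1088, 1397 and 1332 counts in the H295R-labelled libraries and 846, 1043 and 896 in those labelled H295R-PM-Ptc+. The groups did not overlap, at 51.5 ± 5.17 and 37.9 ± 4.48 CPM (SD, n = 3 each), with a log2 fold change of -0.44 (SE 0.110, edgeR adjusted p = 0.0655, and 2.49e-05 with the block). PBX3 (log2 fold change -0.26, edgeR adjusted p = 0.260, and 0.00463 with the block) and PKNOX1 (-0.16, edgeR adjusted p = 0.350, and 0.0330 with the block) fell with the block. MEIS2 and MEIS3 passed in neither fit.

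Polycomb and trithorax proteins keep HOX genes off or on through cell divisions, and CTCF and cohesin divide the clusters into domains. All 39 genes listed for these complexes were tested. No regulator passed edgeR's test (0, with 1 at an unadjusted p under 0.05 where 17.3% of all tested genes were, and 0 in DESeq2 and limma-voom), and 5 passed with the block, which is 12.8% beside 22.5% of all tested genes. The Polycomb genes PHC1 (log2 fold change -0.27) and CBX2 (-0.17) and the cohesin gene RAD21 (-0.17) fell in that fit, and PHC2 (0.16) and the cohesin gene SMC1A (0.15) rose. Fitted values lay above 0 for 20 and below 0 for 19 of the 39, with a median near 0. Of the homeobox genes most related to HOX outside the clusters (the ParaHox, EVX and MEOX genes), 0 of 10 held enough counts to be tested. EVX1, next to HOXA13, had 0 to 8 counts and the other 9 never passed 3.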

How the data were processed

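RNA libraries of 3 H295R and 3 H295R-PM-Ptc+ replicates were analysed, named by group and replicate number from the labels. The authors aligned paired reads to hg38 with STAR 2.4.0a and deposited raw counts, the fragments per gene name from featureCounts on an Ensembl GRCh38 annotation, without normalization. The paper names a stranded mRNA kit, the labels a stranded total RNA kit with polyA RNA, and the submitters' processing notes list Subread 1.5.0-p3. The paper's stated strand option is the forward one, whereas such kits usually need the reverse. In the deposited counts, 231 of 378 genes wholly covered by opposite-strand exons held counts, so strand was used, and the adrenal gene STAR held 6318 to 13177 counts. One row without a gene name held 0 counts and was left out.

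Counts were tested with edgeR 4.0.16 (TMM factors, filterByExpr, glmQLFit and glmQLFTest, group as the only term, two-sided, Benjamini-Hochberg adjustment) in R 4.3.3, after the steps were tested on simulated data. CPM used the TMM-scaled totals. Replicates of a group differed by more than sampling noise (chi-square per gene 5.97 to 28.3). Across genes, log2 CPM deviations of libraries with the same number correlated at 0.594, 0.405 and 0.325, against -0.443 to 0.211 for others, so the numbers pair the samples, which the paper does not state. Alternatives were the replicate block, DESeq2 1.42.0, limma-voom 3.58.1, RLE size factors, a minimum of 10 counts per library, no filter, and leaving out single libraries. Figures were drawn with matplotlib 3.10.9.

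The members and lists (TALE partners, HOX regulators, related homeobox genes, cell type markers) were chosen with earlier results of these data known. A member's statistics are given if its unadjusted p was under 0.05, its adjusted p with the block was under 0.05, or its level was the highest of its cluster. Of genes inside or beside a cluster and of lists, up to 5 that passed were named by that rule. CYP21A2, COL3A1, HOXB8, HOXD8, HOXA11-AS and HOTAIR were named after their values were seen or for their role. Some genes are not reported here by name and are left out of the plots that name genes, while the counts over members and lists include them.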

Additional observations from a re-analysis of the deposited data

How the results depend on the processing

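With the replicate numbers as a block, which is the pairing checked above, 7 HOX genes passed in place of 0, 3758 of all tested genes in place of 624, 2 other genes inside the clusters, 4 TALE partners, 5 regulators and 5 flanking genes, in each case in place of 0. DESeq2 called 2 HOX genes and 1 TALE partner. With no filter on low counts, 1 HOX gene, 1 TALE partner, 1 flanking gene and 1111 of all genes passed. When single libraries were left out, 0 to 1 HOX genes (1 without replicate 1 of H295R), 0 to 2 TALE partners, 0 to 1 flanking genes and 219 to 810 of all genes passed, the log2 ratio of the HOXA sum ranged from -0.16 to -0.043 (-0.10 with all), and the log2 fold change of HOXB7 ranged from -0.13 to 0.014, reversed without replicate 2 of H295R-PM-Ptc+. Other values ranged from -0.30 to -0.066 (HOXA11), -0.56 to -0.18 (HOXD9), -0.55 to -0.28 (HOXC9), 0.066 to 0.15 (HOXB sum) and -0.26 to -0.099 (HOXD sum). The log2 ratio of the HOXD sum was -0.38 without HOXD8 and -0.17 with it, and that of the HOXA sum -0.058 without HOXA11 and -0.10 with it. Among the 108 refits of single named members, 96 kept direction and call, 11 passed where the main fit did not, and 1 reversed. Of the 15 members whose exons overlap no other gene, 11 were tested, and 0 passed, or 4 with the block, beside 22.5% of all tested genes. The cause of these changes was not tested. What another sequencing depth would change was not tested.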
